A study of Mus musculus with 6 samples.

Results

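DNA methylation was followed at 7 genes that mark the erythroid and granulocyte lineages while mouse bone marrow was grown towards dendritic cells. The genes were Tal1, Klf1, Gfi1b and Hba-a1 on the erythroid side and Cebpe, Mpo and Elane on the granulocyte side. Members were all cytosines of the deposited table that lay in 1 mm9 window around each gene, 244 of the 652716 cytosines listed. The 4 erythroid windows held 152 of them and the 3 granulocyte windows 92. The windows were set by position and not by measured levels.

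Red cells and granulocytes arise from marrow progenitors through small sets of transcription factors that switch on abundant end products, globins in red cells and granule enzymes in granulocytes. Methylation of cytosine in CpG sites is copied at cell division, is usually absent from CpG-rich promoters, and is often removed from enhancers and CpG-poor promoters in the lineage that uses them. In Flt3L culture neither lineage is the intended product, so these genes show what such loci look like on a route to another cell type.

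Reduced representation bisulfite sequencing (RRBS), which reads cytosines near the cut sites of restriction enzymes, here MspI and TaqI, was used on C57BL/6J marrow labelled male. The groups were marrow with no days in culture (day 0, replicates 2 and 3), cells after 4 days (replicates 1 and 2) and cells after 7 days (replicates 1 and 4) in medium with Flt3L from a transfected SP2/0 line. By their labels the day 4 cells are common myeloid progenitors and those of day 7 bone marrow derived dendritic cells, but all live cells were taken at both times. RNA was not analysed here, so these cell names come from the labels alone, and in such bulk samples a changed mix of cells and a change within cells cannot be told apart.

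The table held 10049788 and 7757919 reads on day 0, 10242334 and 6736556 on day 4, and 8690273 and 3641141 on day 7. In the 7 windows the same samples held 3646 and 2606, 3727 and 2311, and 3250 and 1100 reads. Day 7 replicate 4 was the shallowest library, with a median of 4 reads per window cytosine against 9 to 15 in the other 5 samples. The day 7 libraries also stood apart on the X chromosome, where the median reads per cytosine relative to autosomes were 1.00 in both of them and 0.636 to 0.667 in the other 4. Reads on the 27 listed Y cytosines were 37.6 and 35.8 ppm of autosomal reads in the day 7 libraries and 56.2 to 71.1 ppm in the other 4. Whether the day 7 samples differ from the others in sex or source, against the label male, was not tested. All 7 windows are autosomal, and the part of these differences in the comparisons with day 7 was not tested.

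The genes sit among others, and where they lie in the windows could be read for 2 promoters. The RefSeq table of mouse promoters (build GRCm38.p6) gave 7 promoters for 6 of the genes, with 250 bases before and 50 after each start, and none for Cebpe. Because no sequence of the mm9 build was read, promoters were placed by matching the spacing of listed cytosines to their CpG sites, with at least 4 matches and no mismatch required. Of 33 promoters tried, including those of the nearest coding neighbours, which were added after the data were seen, 2 were placed. The downstream promoter of Tal1 matched at 7 of 7 listed cytosines, against 1 at the next best position. The promoter of Dnase2a, which follows Klf1 in RefSeq gene order and encodes a lysosomal enzyme that digests DNA, matched at 14 of 14 against 2. Both are shown because the region with the lowest mean level among those tested in the window lies at each of them. Capitals mark the CpG sites with a listed cytosine (Tal1 at chr4:115057561-115057860 and Dnase2a at chr8:84908505-84908804, GRCm38.p6, plus strand).
Tal1 downstream promoter: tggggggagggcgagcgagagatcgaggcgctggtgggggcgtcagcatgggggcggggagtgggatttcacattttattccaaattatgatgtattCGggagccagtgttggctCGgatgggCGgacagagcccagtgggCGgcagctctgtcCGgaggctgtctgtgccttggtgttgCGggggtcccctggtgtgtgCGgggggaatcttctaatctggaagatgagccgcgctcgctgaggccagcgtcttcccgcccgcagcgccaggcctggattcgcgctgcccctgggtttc
Dnase2a promoter: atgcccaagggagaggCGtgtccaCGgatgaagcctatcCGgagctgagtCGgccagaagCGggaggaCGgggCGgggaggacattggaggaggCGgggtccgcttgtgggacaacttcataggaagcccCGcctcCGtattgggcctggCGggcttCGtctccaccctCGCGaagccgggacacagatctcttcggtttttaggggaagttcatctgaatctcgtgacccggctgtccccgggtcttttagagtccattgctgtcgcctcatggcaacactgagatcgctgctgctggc

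The promoters of the other genes were poorer in CpG, and none was placed. They held 3 CpG sites in Klf1, 7 in Gfi1b, 4 in Hba-a1, 2 in Mpo and 6 in Elane, against 22 in the Tal1 downstream promoter, 11 in the upstream one, and a median of 7 over the 32851 promoters of the table. The enzymes cut at CCGG (MspI) and TCGA (TaqI), which read the same on both strands and cannot overlap each other. At least 1 of these sites was present in 4 of the 7 member promoters, while the upstream Tal1, Gfi1b and Mpo promoters had neither, and 60.5% of all promoters of the table had either. Klf1, the erythroid factor that drives adult globin genes, and Mpo, the myeloperoxidase of granulocyte granules, are shown as examples of such promoters. Capitals mark all CpG sites (chr8:84901732-84902031 and chr11:87793534-87793833, GRCm38.p6, plus strand). With fewer CpG sites than the 4 matches required, these promoters could not have been placed in this way, whether read or not.
Klf1 promoter: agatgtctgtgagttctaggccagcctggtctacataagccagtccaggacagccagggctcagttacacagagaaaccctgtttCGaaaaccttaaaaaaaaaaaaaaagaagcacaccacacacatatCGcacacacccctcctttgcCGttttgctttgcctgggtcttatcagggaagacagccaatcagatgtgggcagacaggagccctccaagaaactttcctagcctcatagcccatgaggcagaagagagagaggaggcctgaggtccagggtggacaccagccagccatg
Mpo promoter: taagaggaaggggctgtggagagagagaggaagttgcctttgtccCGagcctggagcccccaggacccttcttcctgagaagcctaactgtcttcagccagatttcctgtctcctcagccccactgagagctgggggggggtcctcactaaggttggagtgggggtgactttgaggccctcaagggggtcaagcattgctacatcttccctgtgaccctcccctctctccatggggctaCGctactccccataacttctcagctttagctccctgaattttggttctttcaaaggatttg

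The member cytosines fell into 65 runs, a run being listed cytosines with neighbours at most 100 bp apart. To count as a region, a run needed 3 or more cytosines with at least 10 reads summed in each sample and both methylated and unmethylated reads, and 26 runs with 175 cytosines passed. Another 33 runs held 1 or 2 cytosines (47 in all), 5 longer runs had under 10 reads in a sample, and 1 Tal1 run of 5 cytosines had no methylated read. Levels are methylated reads in percent of all reads of a run. Neighbouring cytosines are often read by the same molecules, so the reads of a run are not independent. The intervals and limits below cover counting error only and are too tight where reads are shared.

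By their mean over the 6 samples, 13 of the 26 regions lay below 20%, 6 between 20% and 80%, and 7 above 80%. These are 50%, 23.1% and 26.9%, against 41.9%, 21.8% and 36.3% of all 56105 regions tested in the table. The erythroid windows held 9 low, 2 intermediate and 5 high regions, and the granulocyte windows held 4, 4 and 2. Among all runs read in every sample, 14 of 31 in the granulocyte windows were intermediate and 4 of 32 in the erythroid windows. Many of these runs were too short to count as regions. No share of intermediate runs over the whole table is set beside these counts, so they cannot show whether either lineage differs from it.

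**Figure D1:**
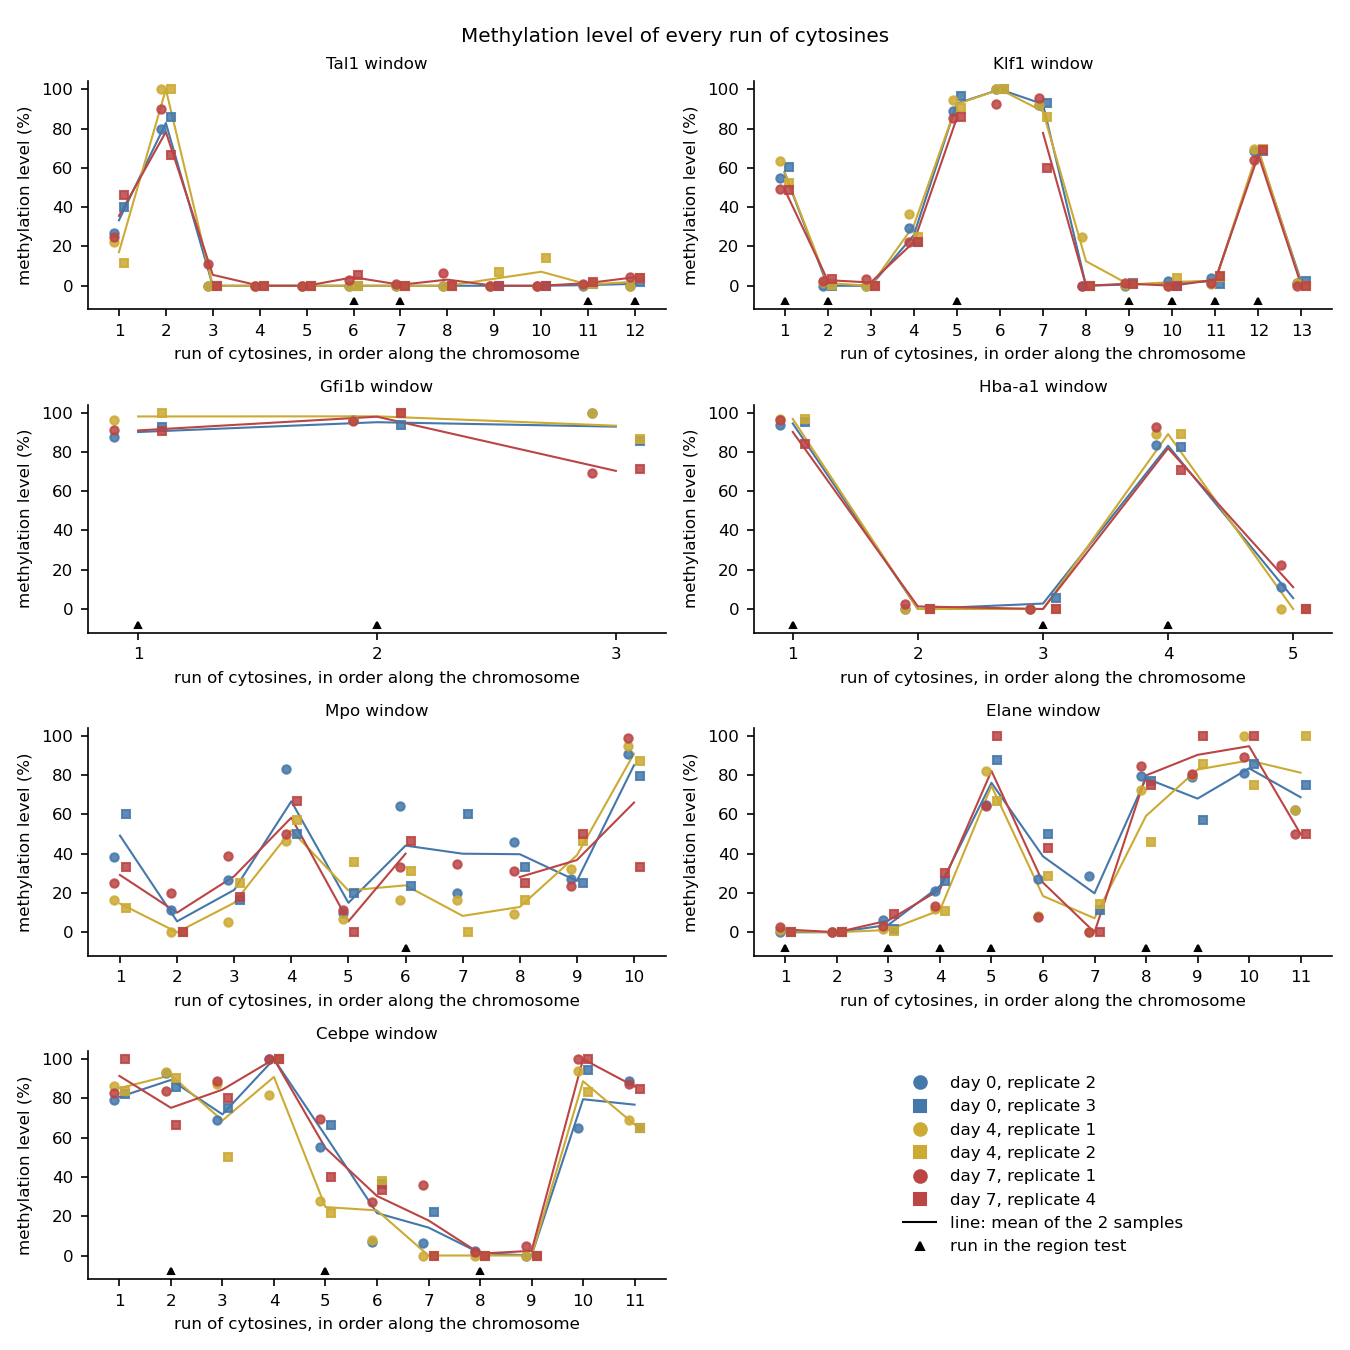
Methylation level in percent of each of the 65 runs of listed cytosines, numbered in order along the chromosome within each gene window. Points are single samples, lines join the means of the 2 samples of a day, triangles mark the 26 regions tested, and the Tal1 window is low over 10 of its 12 runs while the Mpo window is intermediate over most of its runs.

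Tal1, a basic helix-loop-helix factor needed for blood stem cells and for red cell maturation, had the least methylated window. Over all reads of its 41 cytosines the level was 3.95% and 4.28% in marrow at day 0, 3.34% and 2.87% after 4 days and 5.10% and 5.39% after 7 days. All 6 values lay within 3 points of each other, in marrow and in both cultures. The 7 cytosines in the placed promoter (mm9 chr4:114730263-114730366) lay at -153 to -50 bases from the start and had 0 methylated reads in 5 samples. Those samples had 57 and 45 reads at day 0, 62 and 30 at day 4, and 51 in day 7 replicate 4. Such depths allow levels of up to 6.67% at day 0, 10.0% at day 4 and 5.88% at day 7, taking 3 counts of the total as the limit. Day 7 replicate 1 had 1 methylated read of 100, or 1.00% (95% Wilson interval 0.177% to 5.45%).

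The unmethylated stretch of Tal1 was wider than the placed downstream promoter. The upstream promoter (chr4:115056176-115056475, GRCm38.p6) lies before the placed one (chr4:115057561-115057860) and was not placed itself. The stretch can therefore not be read as belonging to 1 promoter. All 8 runs from -1158 to +947 bases from the start had 6-sample means below 3%. A second low group lay from 5475 to 5885 bases after the start, where the run of 11 cytosines (mm9 chr4:114735891-114736008) stood at 0% and 0.662%, 0.385% and 0.862%, and 0.662% and 2.08% on the 3 days. Methylated DNA appeared far upstream, in a pair of short runs. The run at -10881 to -10840 bases from the start was at 26.7% and 40.0% on day 0, 22.5% and 11.8% on day 4, and 25% and 46.2% on day 7, on 13 to 40 reads. Next to it, the cytosine at -10719 bases stood at 66.7% to 100% on 3 to 15 reads.

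**Figure D2:**
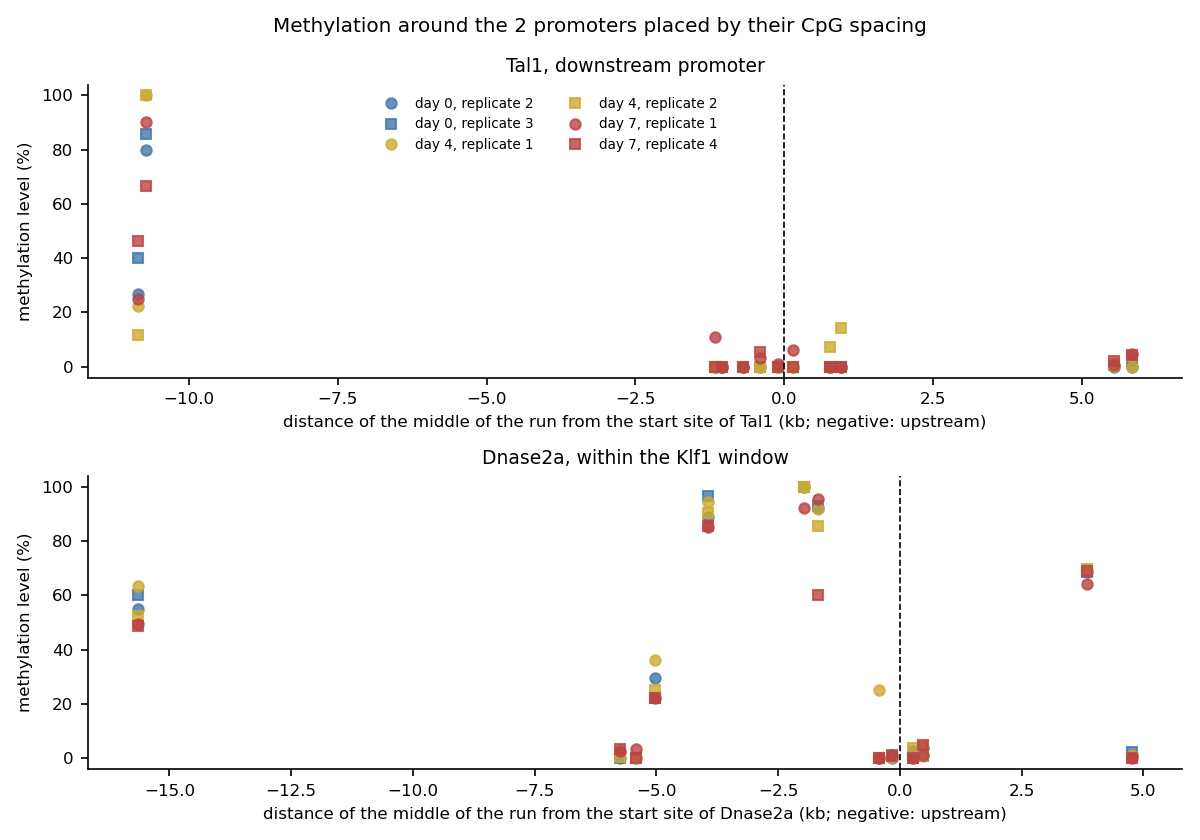
Methylation level in percent of each run against the distance of its middle from the placed start site in kb, for the Tal1 window (top) and for Dnase2a in the Klf1 window (bottom). Points are single samples, the dashed line is the start site, and the run at each start site lies at or near 0% in all 6 samples, as do some runs several kb away, while others are partly or fully methylated.

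Klf1 had the window with the most members, 81 cytosines, and its level over all reads was 27.6% and 30.4% on day 0, 29.1% and 30% on day 4, and 24.8% and 26.7% on day 7. That level averages over low and high runs that alternate along the window. At the Dnase2a start the run of 15 cytosines (mm9 chr8:87432393-87432575) stood at 0% and 1.28% on day 0, 0.392% and 0.735% on day 4, and 1.17% and 0.980% on day 7. At -3963 to -3923 bases from that start, 6 cytosines (mm9 chr8:87428691-87428731) stood at 88.9% and 96.7%, 94.4% and 90.5%, and 85.2% and 85.7%. Still farther upstream, 14 cytosines (mm9 chr8:87426818-87427013) were again near 0, and their small differences are given with the tests below.

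Downstream of Dnase2a the run with the most cytosines of any window (17, mm9 chr8:87436362-87436613) was intermediate in all 6 samples. It stood at 68.5% and 68.5% in marrow at day 0, 69.4% and 69.7% after 4 days and 64.0% and 68.9% after 7 days, on 45 to 327 reads. Wilson intervals (95%) ran from 63.3% to 73.3% in the deepest sample and from 54.3% to 80.5% in the shallowest. The shallowest, day 7 replicate 4, had a median of 1 read per cytosine, against 12 to 23 in the other samples. Its cytosines from 87436362 to 87436444 had 7 reads each, and over all samples these stood at 82.4% to 95.6%. The level of that sample is therefore weighted to this end of the run and is not a like-for-like value. Differences between days were 1.08 points for day 4 against day 0 (adjusted p = 1.00), -3.12 points for day 7 against day 4 (adjusted p = 0.925) and -2.04 points for day 7 against day 0 (adjusted p = 0.939), by edgeR likelihood ratio test with Benjamini-Hochberg adjustment.

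Intermediate levels in the Klf1 window were not evenly shared by neighbouring cytosines. In the run of 6 cytosines at the left end of the window (mm9 chr8:87416946-87417057), the level over all samples was 93.8% at the third cytosine (87416976) and 5.06% at the fifth (87417052). The third stood at 100% and 100%, 94.1% and 86.7%, and 85.7% and 100% on the 3 days, and the fifth at 0% and 0%, 0% and 13.3%, and 15.4% and 0%, on 8 to 17 reads each. Every sample thus showed a high and a low cytosine within the same short stretch. The distance between highest and lowest cytosine, 88.7 points, was reached by 0.237% of the 12249 intermediate regions of the table, whose median was 24.7 points. Over the 17 cytosines of the run downstream of Dnase2a the levels ran from 32.1% to 95.6%, a distance reached by 4.59% of intermediate regions. Regions needed only 3 cytosines, and such a distance tends to grow with their number. Both shares were taken without allowing for it, so they do not compare runs of like length. The run of 6 was singled out after its values were seen, and the mm9 sequence under it was not used here.

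**Figure D3:**
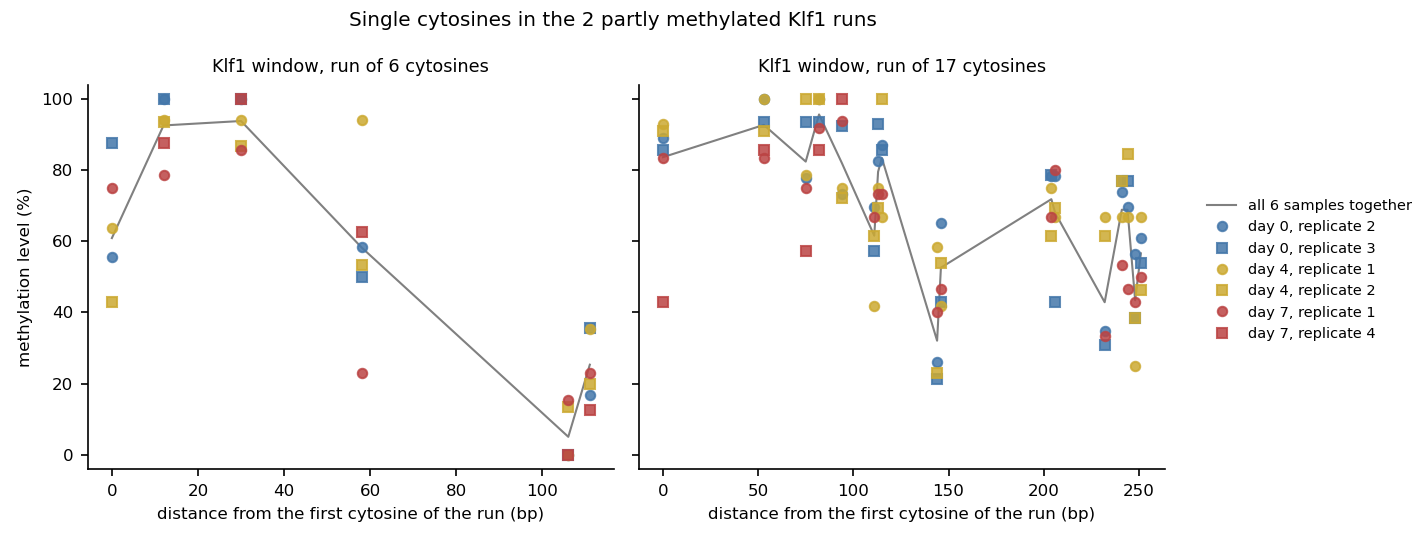
Methylation level in percent of single cytosines with at least 5 reads in a sample against their distance in bp from the first cytosine, in the 2 intermediate regions of the Klf1 window. Points are single samples and the grey line is the level over all 6 samples, which lies between 93.8% and 5.06% within the run of 6 cytosines.

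Gfi1b, a zinc-finger repressor of the erythroid and megakaryocyte lineages, was methylated throughout the part of its window that was read. Only 10 cytosines were listed over 35 kb. Their level over all reads was 93.9% and 92.3% on day 0, 96.6% and 98.1% on day 4, and 90.8% and 91.3% on day 7. Both day 4 samples lay above the other 4, by a few points. In the run of 5 cytosines (mm9 chr2:28466917-28467085) the levels were 87.5% and 92.7%, 96.1% and 100%, and 91.4% and 90.5% on the 3 days. The run of 4 beside it (mm9 chr2:28468380-28468401) stood at 96.5% and 93.8%, 96.2% and 100%, and 95.8% and 100%. The last cytosine (position 28468546), too short a run for the region test, stood at 100% and 85.7%, 100% and 86.7%, and 69.2% and 71.4%, on 7 to 22 reads, and here both day 7 samples were the lowest.

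Hba-a1 encodes adult alpha-globin, the end product of red cells, and its window of 65 kb was taken to include the upstream enhancers. It held only 20 listed cytosines in 5 runs, of which 2 regions were highly methylated and 3 runs were near 0. The region of 8 cytosines (mm9 chr11:32178483-32178616) stood at 83.8% and 82.5% on day 0, 89.1% and 89.1% on day 4, and 92.9% and 70.8% on day 7. Day 7 replicates 1 and 4 were thus the highest and the lowest of the 6 samples. The region of 5 cytosines (mm9 chr11:32162521-32162687) stood at 93.8% and 95.1%, 96.6% and 97.0%, and 96.1% and 84.2%. In the low region (mm9 chr11:32167496-32167545) 1 methylated read was seen, in day 0 replicate 3, and the 12 to 36 reads of the other samples allow up to 25% at day 0, 16.7% at day 4 and 23.1% at day 7.

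Over all its reads the Hba-a1 window stood at 59.7% and 56.2% in the day 7 samples, against 74.8% and 71.4% in the day 0 samples, with 74.3% and 63.6% at day 4. Both day 7 values were thus under both day 0 values, a difference of -15.2 points (unadjusted p = 0.0121, adjusted p = 0.205, edgeR likelihood ratio test with Benjamini-Hochberg adjustment). The make-up of the reads moved with it. The 3 low runs held 38.4% and 24.7% of the reads at day 7 against 14.1% and 20.2% at day 0, and 18.3% and 30.7% at day 4. Outside these runs the level was 94.7% and 74.6% at day 7 and 86.7% and 88.9% at day 0. With each of the 10 cytosines that had at least 5 reads in every sample given equal weight, the difference was -2.32 points (adjusted p = 0.878, limma with Benjamini-Hochberg adjustment). All 10 lie in the 2 highly methylated regions, so this value also leaves out the 3 low runs. The 3 tested regions differed by -4.33, -2.78 and -1.28 points between day 7 and day 0 (adjusted p = 0.918, 0.572 and 1.00, edgeR).

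Among the granulocyte genes, Cebpe, a C/EBP factor needed for the last steps of granulocyte maturation, had 23 listed cytosines with a wide range of levels. Over all reads the window stood at 54.5% and 61.1% on day 0, 51.8% and 47.7% on day 4, and 60.3% and 46.8% on day 7. Its lowest region (4 cytosines, mm9 chr14:55333005-55333143) was at 2.44% and 0%, 0% and 0%, and 1.96% and 0%. Its highest region (4 cytosines, mm9 chr14:55317239-55317285), stood at 92.8% and 86.0% on day 0, 93.3% and 90.2% on day 4, and 83.7% and 66.7% on day 7. Of the other 8 Cebpe runs, which were too short or too thinly read for the region test, 5 had means above 70%. A cytosine pair beside the run described next (mm9 chr14:55330932-55330947) stood at 6.82% and 36.4%, 8% and 37.9%, and 27.3% and 33.3%, with the samples of day 0 and of day 4 each split in the same way.

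The difference with the smallest p of all 26 regions for day 4 against day 0 was in Cebpe, in a run of 3 cytosines (mm9 chr14:55330550-55330607). It stood at 55.4% and 66.7% on day 0, 27.6% and 21.7% on day 4, and 69.4% and 40.0% on day 7, on 56 and 72, 58 and 46, and 36 and 10 reads. Both day 4 samples lay below all 4 others. Wilson intervals (95%) of the day 4 samples were 17.8% to 40.2% and 12.3% to 35.6%, and those of the day 0 samples were 42.4% to 67.6% and 55.2% to 76.5%. The interval of day 7 replicate 4, from 16.8% to 68.7% on 10 reads, spans both. Each of the 3 cytosines had the same order between day 4 and day 0. The run was picked for its small p and its cytosines can share reads, so this agreement is no separate evidence. At the first (55330550) the levels were 30% and 18.2% at day 4 against 63.6% and 71.4% at day 0, at the second (55330596) 26.1% and 23.5% against 60% and 64.0%, and at the third (55330607) 28.0% and 22.2% against 48.0% and 66.7%.

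The day 4 mean of this Cebpe run was 24.7% ± 4.13 and the day 0 mean 61.0% ± 8.0 (SD, n = 2 each), a difference of -36.3 points (unadjusted p = 0.000618, adjusted p = 0.319). The day 7 mean was 54.7% ± 20.8 (SD, n = 2), a difference of 30.1 points to day 4 (unadjusted p = 0.00391, adjusted p = 0.186) and of -6.29 points to day 0 (adjusted p = 0.995). All are edgeR likelihood ratio tests adjusted by Benjamini-Hochberg over all 56105 regions, and none passed the threshold of 0.05. The difference of day 7 to day 4 was 15.3 points without day 7 replicate 1 and 44.8 points without replicate 4. The day 4 samples enter both differences, which are therefore not independent.

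Mpo encodes the myeloperoxidase of primary granules, and its 19 listed cytosines lay scattered in 10 runs. The window stood at 54.3% and 43.8% on day 0, 39.3% and 46.7% on day 4, and 52.9% and 31.1% on day 7 over all reads. Its single region (3 cytosines, mm9 chr11:87614661-87614715) stood at 64.4% and 23.8% on day 0, 16.4% and 31.4% on day 4, and 33.3% and 46.7% on day 7, on 15 to 55 reads. The day 0 samples lay far apart (44.1% ± 28.7, SD, n = 2), and replicate 2 was the highest of all 6. The difference of day 4 against day 0 was -20.2 points (unadjusted p = 0.0266, adjusted p = 0.709, edgeR likelihood ratio test with Benjamini-Hochberg adjustment), and without day 0 replicate 2 it was 0.09 points. A pair of Mpo runs of 1 cytosine each had both day 4 samples below all 4 others. They stood at 16.7% and 12.5% at day 4 against 38.5% and 60% at day 0 (mm9 position 87606650), and at 9.09% and 16.7% against 46.2% and 33.3% (position 87620320), on 3 to 16 reads per sample. Other Mpo runs went the other way. Close to the second of the pair, the run at 87620439 to 87620459 stood at 32% and 46.4% at day 4 against 27.3% and 25% at day 0. The run at 87613669 to 87613698 had a mean of 21.3% at day 4 against 15% at day 0. The longest Mpo run, 4 cytosines at the right end (mm9 chr11:87627744-87627840), stood at 33.3% on 6 reads in day 7 replicate 4 and at 79.3% to 98.7% in the other 5 samples, and was not tested.

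Elane encodes neutrophil elastase, a serine protease of the same granules. Over all reads of its 50 cytosines the window stood at 23.8% and 24.6% on day 0, 23.4% and 17.6% on day 4, and 26.4% and 24.9% on day 7. Levels ran from near 0 at the left of the window to 80.4% at its highest region (4 cytosines, mm9 chr10:79354753-79354811). That region stood at 78.9% and 57.1% on day 0, 80% and 85.7% on day 4, and 80.6% and 100% on day 7, with an adjusted p of 0.841 between day 4 and day 0 and of 0.419 between day 7 and day 0 (edgeR). The lowest region, 14 cytosines (mm9 chr10:79337191-79337323), had 0 methylated reads in both day 0 samples, in day 4 replicate 2 and in day 7 replicate 4.

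In between, 4 cytosines of Elane (mm9 chr10:79345246-79345368) stood at 20.9% and 26.2% on day 0, 11.7% and 10.7% on day 4, and 13.5% and 30% on day 7. Both day 4 samples were again below all 4 others, with a difference of -12.3 points to day 0 (unadjusted p = 0.0508, adjusted p = 0.756, edgeR likelihood ratio test with Benjamini-Hochberg adjustment). The only member cytosine with at least 10 reads in every sample lay in this run, at mm9 position 79345353, with 32.6% and 42.9%, 30.2% and 25%, and 16.7% and 30% on the 3 days. It was not called in any comparison by edgeR or Fisher's exact test, where edgeR called 0%, 0.123% and 0.104% of 10559 such cytosines between day 4 and day 0, between day 7 and day 4 and between day 7 and day 0. A run of 8 cytosines (mm9 chr10:79351474-79351567) stood at 79.7% and 77.1%, 72.7% and 45.8%, and 84.7% and 75%. All 8 of its cytosines had the same numbers of reads (8 and 6, 16 and 3, and 9 and 2), so the value of 45.8% rests on 3 reads that were each counted at 8 cytosines.

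**Figure D4:**
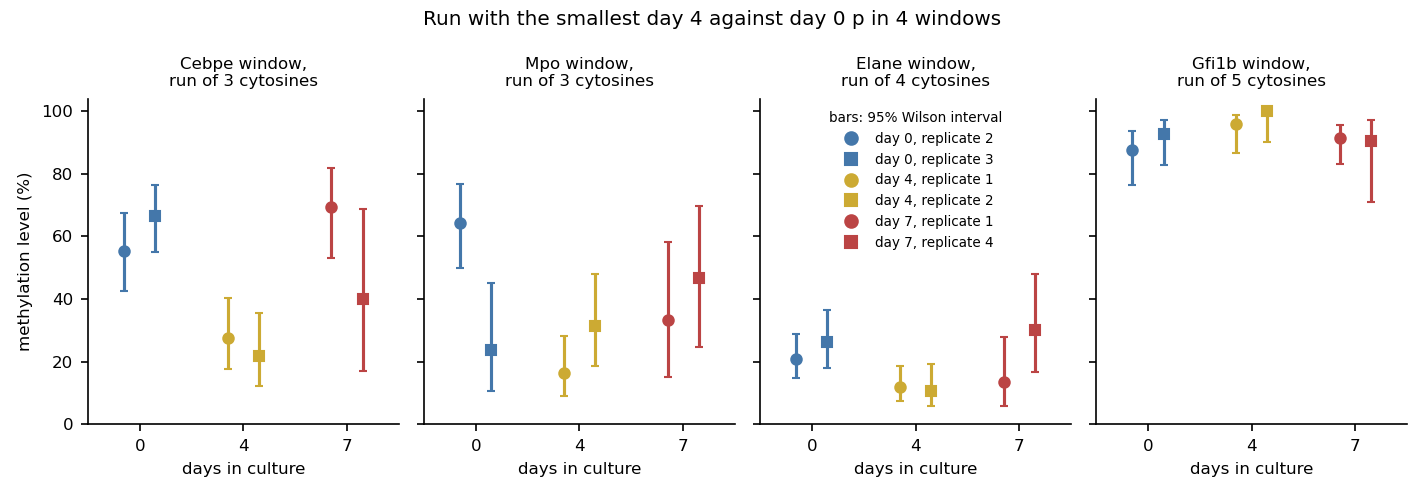
Methylation level in percent by day for the region with the smallest unadjusted p for day 4 against day 0 in the Cebpe, Mpo, Elane and Gfi1b windows. The Klf1 run of 14 cytosines, which had a smaller p than the Elane and Gfi1b runs and was higher at day 4, is not shown. Points are single samples with 95% Wilson intervals, and in the Cebpe run the day 4 samples sit at 27.6% and 21.7% below the other 4, while in the Mpo run the day 0 samples sit at 64.4% and 23.8%.

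For day 4 against day 0, 0 of the 26 regions were called, where a call needed an adjusted p under 0.05 in edgeR's likelihood ratio test and a difference of 20 points or more. Over all regions tested the share called was 0.00178%. At an unadjusted p below 0.05 there were 4 of 26, or 15.4%, against 6.60% of all regions. The 4 were the Cebpe and Mpo runs above, both lower at day 4, and a Gfi1b and a Klf1 run, both higher. In Gfi1b the run of 5 cytosines differed by 7.93 points (unadjusted p = 0.0492, adjusted p = 0.755). In Klf1 the run of 14 had 2.13% and 0.621% at day 4 against 0% in both day 0 samples, a difference of 1.37 points (unadjusted p = 0.0316, adjusted p = 0.725). The quasi-likelihood test and limma called 0. On pooled reads, which it takes as independent, Fisher's exact test called the Cebpe run (adjusted p = 3.674e-05) and the Mpo run (adjusted p = 0.02126).

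Over the 26 regions, both day 4 samples lay above both of day 0 in 6 (20.6% of all regions did) and below both in 4 (10.3%). They lay above all 4 other samples in 3 regions (5.38% in the table) and below all 4 in 4 regions (4.87%). The 3 higher regions were the Gfi1b run of 5, the Hba-a1 run of 5 and the Klf1 run of 17. The 4 lower regions were the Cebpe run of 3 and the Elane runs starting at 79344557, 79345246 and 79351474. The Elane run starting at 79344557 lay near 0, at 1.48% and 0.893% at day 4 against 6.02% and 1.53% at day 0. Its day 4 replicate 1 was thus under day 0 replicate 3 by a very small margin. In the run starting at 79351474 the lower day 4 value rests on 3 reads per cytosine. The median difference over the 26 regions was 0.26 points, and 0.44 points over all regions tested.

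In the granulocyte windows intermediate runs of any length were mostly lower at day 4, a grouping made after the values were seen. Of the 14 such runs, 11 had a lower mean at day 4 than at day 0, where 40.2% of 96026 intermediate runs of the table did. In 4 of them both day 4 samples lay under both of day 0 (10.9% in the table), and in 4 under all other samples (4.76%). Of the 4 intermediate runs in the erythroid windows, 1 had a lower day 4 mean. Many of these runs hold 1 or 2 cytosines, neighbours can share reads, and the windows are few, so the counts are a description with no test.

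For day 7 against day 4, 0 of 26 regions were called, where 0.451% of the table was. At an unadjusted p below 0.05 there were 2 of 26, or 7.69%, against 11.4% of all regions, a share no higher than the background. Both were in the Cebpe window. The run of 3 stood 30.1 points higher at day 7, and the run of 4 starting at 55317239 differed by -16.6 points (unadjusted p = 0.0219, adjusted p = 0.344, edgeR likelihood ratio test with Benjamini-Hochberg adjustment), or by -8.07 points without day 7 replicate 4. The quasi-likelihood test and limma called 0, and on pooled reads Fisher's exact test called the Cebpe run of 3 (adjusted p = 0.00211). Of the 14 intermediate granulocyte runs 12 had a higher mean at day 7 than at day 4 (53.2% in the table), and of the 4 erythroid ones 1 did. These counts share the day 4 samples with the comparison to day 0. Over the 26 regions, both day 7 samples lay above both of day 4 in 9 (24.4% of all regions) and below both in 6 (10.3%).

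For day 7 against day 0, 0 of 26 regions were called, where 0.497% of the table was, and the quasi-likelihood test, limma and Fisher's exact test called 0 too. At an unadjusted p below 0.05 there were 2 of 26, or 7.69%, against 12.9% of all regions, and both are nearly unmethylated runs. The Klf1 run of 14 cytosines stood at 2.49% and 3.23% in the day 7 samples (6 methylated reads of 241 and 1 of 31) against 0% in both day 0 samples (unadjusted p = 0.00439, adjusted p = 0.164, edgeR likelihood ratio test with Benjamini-Hochberg adjustment). At day 0, 139 and 122 reads put the limit at 2.16% and 2.46%. These reads are sums over 14 cytosines with medians of 8.5 and 7 reads each, so with shared reads the limits would be higher. The Elane run of 14 stood at 2.85% and 0% in the day 7 samples (7 methylated reads of 246 and 0 of 106) against 0% in both day 0 samples (unadjusted p = 0.00531, adjusted p = 0.178). Without day 7 replicate 1 its difference was 0. In the whole table the 20323 autosomal regions below 5% averaged 2.10% ± 0.214 at day 7, against 0.993% ± 0.137 at day 0, and the mitochondrial sequence 2.02% ± 0.363 against 0.518% ± 0.0400 (SD, n = 2 each). The part of this difference in the Klf1 and Elane values was not tested. Over the 26 regions, both day 7 samples lay above both of day 0 in 4 (29.8% of all regions) and below both in 3 (7.03%). The median difference was 0.47 points over the 26 and 1.53 points over all regions tested.

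Taken as whole windows beside 19708 tiles of 30 kb, no gene was called at an adjusted p below 0.05 in any comparison. The share called over windows and tiles was 0% between day 4 and day 0, 1.08% between day 7 and day 4 and 1.55% between day 7 and day 0. At an unadjusted p below 0.05 there were the Hba-a1 window for day 7 against day 0, given above, and the Gfi1b window for day 7 against day 4, with a difference of -6.27 points (unadjusted p = 0.0122, adjusted p = 0.284, edgeR likelihood ratio test with Benjamini-Hochberg adjustment). The backgrounds for that count were 14.0% and 10.2%, and 5.76% for day 4 against day 0, where no window reached it. Over samples, 2 against 2 allow no exact permutation p under 0.33. Differences over the 7 windows ran from -8.06 points (Cebpe) to 4.26 points (Gfi1b) for day 4 against day 0, and from -11.0 points (Hba-a1) to 5.12 points (Elane) for day 7 against day 4. For day 7 against day 0 they ran from -15.2 points (Hba-a1) to 1.44 points (Elane). Tiles had medians of 1.27, 1.16 and 2.5 points in the 3 comparisons.

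**Figure D5:**
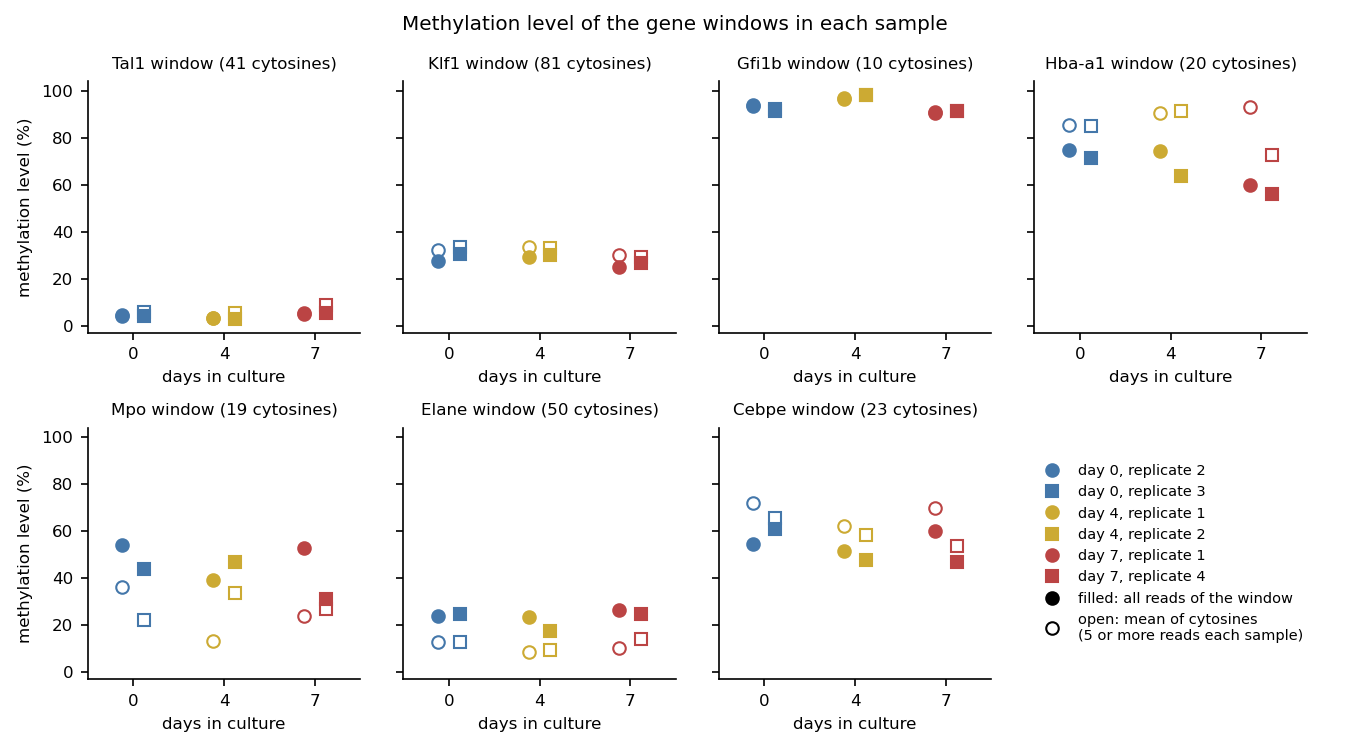
Methylation level in percent of each gene window by day. Filled points are all reads of the window in a sample, open points the mean of cytosines with at least 5 reads in every sample, and in the Hba-a1 window the filled points of day 7 lie lowest, at 59.7% and 56.2%, while its open points, which leave out the low runs, are at 93.3% and 72.7% at day 7.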

How the data were processed

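Per the labels' protocols, DNA was cut with MspI or TaqI in separate aliquots, pooled, treated with bisulfite and amplified. Per the submitters' processing notes, Bismark and Bowtie2 were used on the mm9 build, with versions, trimming and duplicate handling not given in the sources used here. For each sample and listed cytosine, the authors deposited the methylated fraction and the counts of unmethylated and methylated reads. Counts were used and the deposited fraction was not. No molecular identifiers are named in the labels, so PCR copies could count as reads.

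Samples were grouped by title. Nothing in the labels says that the 2 samples of a day are from different animals or cultures. The p-values thus measure only how these samples vary, which may be technical. Methylated and unmethylated counts were fitted over the whole table with edgeR 4.0.16 in R 4.3.3, with sample terms, 1 methylation term per group, all 6 samples in 1 model and no dispersion trend. Contrasts were tested by likelihood ratio with Benjamini-Hochberg adjustment over all 56105 regions. Windows were fitted beside tiles with at least 10 cytosines, and single cytosines where each sample had at least 10 reads. The test was also run on simulated counts with large changes planted in deep regions. That setting cannot show what the test could find at the depths and differences seen here. The minimum of 10 reads was applied to the sum over a region.

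Regions are named if they hold the most cytosines of their window, have its lowest or highest mean, or have an unadjusted p below 0.05. Other regions and the shorter runs, such as the Elane runs starting at 79344557, 79345246 and 79351474, were named after their values were seen. Members and lists were chosen with earlier results of these data known. Alternatives were other tests (limma 3.58.1 on log2 ratios with a pseudocount of 0.5), minimum differences, read minimums, region rules and tiles, each sample left out, autosomes alone, and a fit of just the 2 groups compared. Levels of single cytosines over all samples needed at least 20 reads. The planned tests of other lineage genes were not run, since mm9 gene positions were not used here. Wilson intervals used scipy 1.17.1.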

Additional observations from a re-analysis of the deposited data

How the results depend on the processing

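The counts of called regions, windows and cytosines kept their value of 0 in 103 of 105 combinations of comparison and alternative setting. The other 2 are Fisher's exact test on pooled reads, which called 2 regions between day 4 and day 0 and 1 between day 7 and day 4. Many of these combinations could hardly have moved. Most cytosine settings had 1 member to test. Between day 4 and day 0, only 1 of the 56105 regions of the table was called, so a count of 0 says little there. With each sample left out in turn the counts stayed at 0 in all 3 comparisons, and so they did with runs of any length, which was added after seeing the data. A minimum of 20 reads per cytosine left no member to test. Among named differences, that of the Mpo region starting at 87614661 for day 4 against day 0 turned to 0.09 points without day 0 replicate 2, and ran to -40.5 points with other samples left out. The Cebpe run starting at 55330550 ran from -42.0 to -30.7 points for day 4 against day 0 and from 15.3 to 44.8 points for day 7 against day 4 with samples left out. With 10 reads in day 7 replicate 4, this run could not be tested at minimums of 20 reads per region or 5 reads per cytosine. Over all its alternatives the adjusted p ran from 3.674e-05 (Fisher's exact test) to 1.00 (the quasi-likelihood test and limma) and from 0.00211 (Fisher's exact test) to 0.768 (without day 7 replicate 1). The Hba-a1 window ran from -16.9 to -2.32 points for day 7 against day 0. No paired analysis was possible because day 4 and day 0 share only replicate number 2, day 7 and day 4 share only number 1, and day 7 and day 0 share none. Depth limits what single cytosines can show, with 83 of 244 tested at a minimum of 5 reads in every sample and 1 at a minimum of 10.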
